A study of Mus musculus with 27 samples.

Results

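The comparison described here sets the 6 B-cell lymphomas with the highest Myc level against the 6 with the lowest, among 19 lymphomas in a series of 27 samples. The samples were chosen by Myc itself: its 8 transcripts were summed to 1 value per sample in TPM, a relative abundance corrected for transcript length, the 19 lymphomas were ranked, and both ends of the ranking were taken. Myc is therefore a description of the groups and is left out of every result.

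All 12 lymphomas came from c-myc Igh transgenic mice, Igh being the immunoglobulin heavy chain locus, and all were B220+ purified, B220 being a form of CD45 on the surface of B cells. The mouse lines are named hv, cr and co in the labels, which do not say what the names stand for or which elements drive the transgene. The Myc-high group held 3 cr, 2 hv and 1 co lymphoma, 3 of them from lung, 2 from mesenteric lymph node and 1 from peripheral lymph node. The Myc-low group held 3 hv, 2 cr and 1 co lymphoma, 4 of them from lung and 1 from each kind of node. The other 7 lymphomas served as a check of levels between the groups, and 8 samples of splenic B cells from healthy wt, hv, cr and co mice, 4 resting and 4 treated with LPS, a bacterial product that activates B cells, for 2 days, are given as reference levels. The labels do not say whether the lymphomas came from separate mice, so a p-value here weighs a difference against the scatter of these samples alone. In bulk RNA, fewer cells of a type and less RNA per cell cannot be told apart.

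MYC is a transcription factor that pairs with MAX and binds the DNA sequence CACGTG, the E-box, in promoters and enhancers. It is known for raising ribosome production, nucleotide synthesis and other growth functions, and for driving B-cell lymphomas when it is placed under immunoglobulin control. The proteins MNT, MGA and the MXD family also pair with MAX and oppose it at the same sites. The table cannot tell transcripts of a transgene from those of the endogenous gene.

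The groups selected on Myc ran from 263 to 362 TPM at the high end (300.2 ± 32.7, SD, n = 6) and from 78.8 to 136 TPM at the low end (106.9 ± 18.6, SD, n = 6). The high boundary fell in a gap: the sixth lymphoma, Lung.cr.T9, had 263 TPM and the next, Lung.cr.T16, 197 TPM. The low boundary did not, since Lung.cr.T14 just inside it had 136 TPM and PLN.hv.T15 just outside it had 141 TPM. The Myc-low lymphomas lay within the range of non-malignant cells, which was 89.0 to 185 TPM in resting and 55.0 to 155 TPM in LPS-treated splenic B cells.

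**Figure D1:**
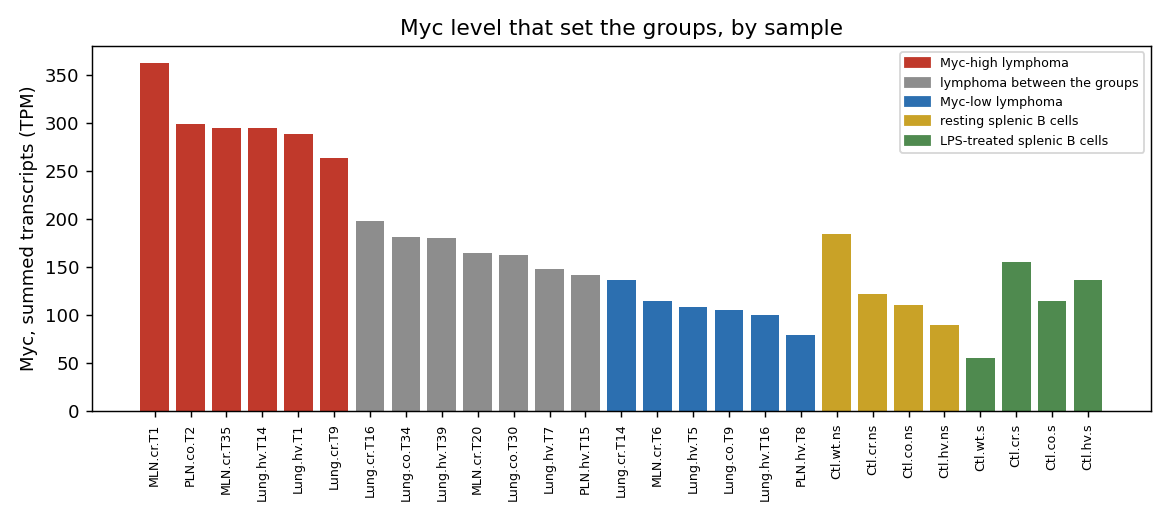
Myc level in each sample (vertical axis, TPM of all Myc transcripts summed), with the 19 lymphomas ordered from highest to lowest and the splenic B cells at the right. The 6 red bars start at 263 TPM and the 6 blue bars end at 136 TPM; these bars define the groups and test nothing.

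The groups overlapped in depth, which was about 11531400 to 23194900 read pairs in the Myc-high and 13198400 to 23689600 in the Myc-low lymphomas. B-cell markers were present throughout, with a summed level of 10 markers of 2417 to 4870 TPM in the Myc-high and 2409 to 10447 TPM in the Myc-low group and none of the 10 at 0. Markers of other cells were low next to these, and their sums overlapped between the groups. The sum of 12 T-cell markers was 6.69 to 26.3 TPM against 10.4 to 71.0 TPM, that of 13 macrophage markers 12.0 to 79.2 TPM against 12.3 to 313 TPM, that of 9 dendritic cell markers 30.2 to 56.4 TPM against 33.6 to 112 TPM, and that of 9 neutrophil markers 1.49 to 159 TPM against 0.388 to 295 TPM, Myc-high first, and the medians of these 4 sums were lower in the Myc-high group. The sum of 6 platelet markers reached higher there, at 1.93 to 11.7 TPM against 1.85 to 4.70 TPM, with medians of 2.79 and 2.67 TPM. That of 9 lung epithelium markers also did, at 0.837 to 50.3 TPM against 0.262 to 14.3 TPM, but its median was lower, 1.61 against 6.14 TPM. That of 8 fibroblast markers was 3.79 to 49.8 TPM against 2.83 to 61.2 TPM, with medians of 7.14 and 7.57 TPM. The medians of the NK cell, alveolar macrophage, erythroid and endothelium sums were lower in the Myc-high group as well. So was that of the B-cell sum, 3312 against 4188 TPM. Of all markers searched, Car4 of alveolar macrophages was at 0 in all 12 lymphomas.

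Few genes separated the groups by the test. Of 11711 genes tested, 5 (0.0427%) passed an adjusted p of 0.05 in limma, a linear model fitted across all genes, with Benjamini-Hochberg adjustment: 1 (0.00854%) was higher and 4 (0.0342%) were lower in the Myc-high lymphomas. The gene that rose was Syndig1l, which encodes a membrane protein related to a synapse differentiation factor. Those that fell were Xbp1, the transcription factor of secretory cells, the interferon-inducible genes Ifi47 and AW112010, and Igkv10-96, an immunoglobulin kappa variable gene. All 5 had an adjusted p of 0.0443 by limma with Benjamini-Hochberg adjustment, so they sit just inside the threshold. Without adjustment, 442 genes (3.77%) were higher and 903 (7.71%) lower at p under 0.05, and the groups did not overlap at all for 21 genes (0.179%) that were higher and 76 (0.649%) that were lower. The median difference of all tested genes was -0.05 on the log2 scale, and 44.0% of them were higher in the Myc-high group by any amount.

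Syndig1l (ENSMUSG00000071234, chr12:84677278-84698807) was at 12.4, 3.01, 3.7, 12.2, 4.55 and 12.3 TPM in the Myc-high lymphomas MLN.cr.T1, PLN.co.T2, MLN.cr.T35, Lung.hv.T14, Lung.hv.T1 and Lung.cr.T9. In the Myc-low lymphomas it was at 0.288 TPM in Lung.cr.T14, 0.938 in MLN.cr.T6, 1.15 in Lung.hv.T5, 0.254 in Lung.co.T9, 0.0599 in Lung.hv.T16 and listed at 0 in PLN.hv.T8. Every Myc-high lymphoma thus lay above every Myc-low one, and MLN.cr.T1, Lung.hv.T14 and Lung.cr.T9 stood highest. The difference was 2.51 ± 0.38 (SE) on the log2(TPM + 1) scale, which understates the change of a gene this low. The lymphomas between the groups reached at most 2.06 TPM, and no splenic B-cell sample exceeded 0.197 TPM.

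Xbp1 (ENSMUSG00000020484, chr11:5520659-5525893) encodes the factor that drives the unfolded protein response and the growth of the endoplasmic reticulum in antibody-secreting cells. Its level ran from 11.9 to 31.4 TPM (median 14.8) in the Myc-high lymphomas and from 35.2 to 70.2 TPM (median 59.2) in the Myc-low ones. The highest Myc-high sample, Lung.cr.T9, lay just under the lowest Myc-low sample, Lung.hv.T5, and the log2 difference was -1.62 ± 0.27 (SE). The lymphomas between the groups, at 36.4 to 83.7 TPM, sat with the Myc-low group and resting B cells (44.4 to 53.5 TPM), and LPS-treated B cells were higher, at 86.7 to 138 TPM.

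Ifi47 (ENSMUSG00000078920, chr11:49076587-49096974) is a GTPase of the interferon-inducible family that acts against intracellular microbes. It ran from 8.99 to 21.9 TPM (median 18.8) in the Myc-high lymphomas and from 30.7 to 66.9 TPM (median 51.9) in the Myc-low ones, with no overlap and a log2 difference of -1.54 ± 0.25 (SE). AW112010 (ENSMUSG00000075010, chr19:11047617-11050566), a gene known to be induced by interferon and bacterial products, ran from 2.44 to 7.69 TPM (median 5.45) in the Myc-high lymphomas and from 11.6 to 62.8 TPM (median 30.5) in the Myc-low ones, again without overlap, with a log2 difference of -2.26 ± 0.36 (SE). Among the lymphomas between the groups, AW112010 ranged from 3.06 to 76.4 TPM and Ifi47 from 25 to 81.4 TPM. The marker sums of T cells, macrophages and dendritic cells given above had lower medians as well, and their part in these results was not tested.

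Igkv10-96 (ENSMUSG00000094420, chr6:68631963-68632430), named here after its values were seen, ran from 4.35 to 9.82 TPM (median 6.77) in the Myc-high lymphomas and from 16.3 to 47.8 TPM (median 21.1) in the Myc-low ones, with a log2 difference of -1.77 ± 0.27 (SE). Clonal B cells use a single kappa variable gene, and reads of near-identical variable genes are shared out between them, so its value is uncertain. Resting splenic B cells, which are polyclonal, held 217 to 352 TPM.

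**Figure D2:**
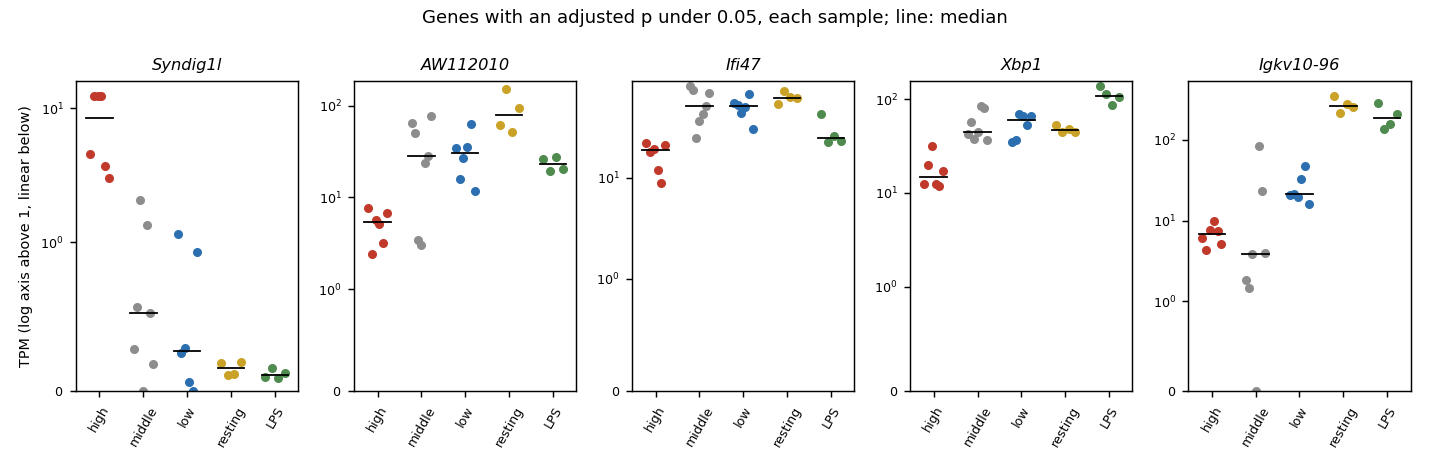
TPM of the 5 genes with an adjusted p under 0.05 (1 panel each, vertical axis logarithmic above 1 TPM and linear below), 1 point per sample in the Myc-high, middle and Myc-low lymphomas and in resting and LPS-treated splenic B cells; lines are medians. Syndig1l is 3.01 TPM or more in every Myc-high lymphoma and at most 1.15 TPM in the Myc-low ones, and the other 4 genes show the reverse order without overlap.

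These calls depend on the samples and on the model. With a term for mouse line, for site, or for both, 0 genes were called by limma, with 1414, 1273 and 1372 at an unadjusted p under 0.05, and the groups differ in their make-up of lines and sites. Leaving out any 1 of MLN.cr.T1, MLN.cr.T35, Lung.hv.T14, Lung.hv.T1, Lung.cr.T14, Lung.hv.T16 or PLN.hv.T8 left 0 genes called by limma, with 1003 to 1386 genes at an unadjusted p under 0.05. Without PLN.co.T2, Syndig1l alone was called. Without Lung.cr.T9, 4 genes were called, of which 1, Xbp1, is among the 5. Leaving out MLN.cr.T6 gave 17 calls, Lung.co.T9 24 and Lung.hv.T5 27, each with all 5 among them. Over all alternatives, Syndig1l passed in 11 of its 28 alternatives and Xbp1 in 10 of 29.

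Beyond the 5 calls, the genes with the smallest p among those with no overlap and at least 5 TPM in the higher group are named here as values, since none of them passed the threshold. In the Myc-high direction, 3 of them act in making ribosomes or modifying RNA. Wdr12, a subunit of the PeBoW complex that matures the large ribosomal subunit, ran from 65.3 to 96.8 TPM (median 79.5) in the Myc-high lymphomas and from 33.3 to 58.3 TPM (median 44.6) in the Myc-low ones (log2 difference 0.82 ± 0.19, adjusted p = 0.128 by limma with Benjamini-Hochberg adjustment). Pus7, which converts uridine to pseudouridine in RNA, ran from 43.1 to 101 TPM (median 67.8) in the Myc-high lymphomas and from 25.1 to 42 TPM (median 36.7) in the Myc-low ones. Taf1a, a subunit of the factor that brings RNA polymerase I to ribosomal DNA, ran from 19.2 to 24 TPM (median 20.4) in the Myc-high lymphomas and from 7.02 to 17.4 TPM (median 14.2) in the Myc-low ones.

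The others named in this direction had different roles. Mcoln2, a cation channel of endosomes and lysosomes in lymphocytes, ran from 63.8 to 85.1 TPM (median 77.3) in the Myc-high lymphomas and from 11.6 to 42.2 TPM (median 31.7) in the Myc-low ones and had the smallest adjusted p among the named genes of this direction that were not called, 0.0606 by limma with Benjamini-Hochberg adjustment. Slc19a1, the reduced folate carrier that supplies one-carbon metabolism, ran from 23.1 to 45 TPM (median 28.3) in the Myc-high lymphomas and from 12.2 to 21.3 TPM (median 18.3) in the Myc-low ones. Hsd17b13, a lipid droplet enzyme, and Hacd1, which acts in the elongation of very long-chain fatty acids, had means of 8.3 ± 4.21 TPM against 1.15 ± 0.943 TPM and 12.9 ± 6.3 TPM against 3.97 ± 1.69 TPM (SD, n = 6 each). The remaining genes of this kind were the phosphatase gene Ppm1f (log2 difference 1.10 ± 0.24), the proprotein convertase gene Pcsk4 (1.29 ± 0.31), the ephrin gene Efnb1 (1.96 ± 0.48) and the zinc finger gene Zfp280c (0.66 ± 0.19), and their adjusted p ran from 0.111 to 0.187 by limma with Benjamini-Hochberg adjustment.

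In the Myc-low direction, the named genes again had different roles. Cd69, an early activation antigen that retains lymphocytes in tissue, ran from 1.22 to 12.7 TPM (median 7.66) in the Myc-high lymphomas and from 16.1 to 62.2 TPM (median 33) in the Myc-low ones. Jak2, a kinase below cytokine receptors, ran from 2.79 to 6.99 TPM (median 3.86) in the Myc-high lymphomas and from 7.98 to 22.7 TPM (median 13.4) in the Myc-low ones, and Tnfrsf1b, a TNF receptor, ran from 0.458 to 2.66 TPM (median 1.42) in the Myc-high lymphomas and from 3.39 to 13.5 TPM (median 6.87) in the Myc-low ones. Their log2 differences were -2.18 ± 0.40, -1.45 ± 0.29 and -1.78 ± 0.35 (SE), with adjusted p of 0.0676, 0.0955 and 0.084 by limma with Benjamini-Hochberg adjustment.

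Marcks, a membrane protein that binds actin and is a substrate of protein kinase C, ran from 0.166 to 5.21 TPM (median 0.64) in the Myc-high lymphomas and from 5.38 to 36.4 TPM (median 15.3) in the Myc-low ones. Arhgap18, a GTPase-activating protein, had means of 0.809 ± 0.745 TPM against 6.97 ± 4.79 TPM (SD, n = 6 each), and Abracl, a small regulator of actin dynamics, had means of 41.5 ± 6.48 TPM against 88.2 ± 18.1 TPM (SD, n = 6 each). The ubiquitin ligase gene Rnf157 and the AP-1 repressor gene Jdp2 showed log2 differences of -1.31 ± 0.24 and -1.74 ± 0.35 (SE). Marcks was as high as 119.6 TPM among the lymphomas between the groups, above both ends of the ranking.

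Hbb-bt, a beta-globin gene, was also lower, at 6.08 ± 4.34 TPM against 21.2 ± 3.38 TPM (SD, n = 6 each), beside a summed level of 9 erythroid markers of 16.4 to 105 TPM in the Myc-high and 30 to 177 TPM in the Myc-low lymphomas. Its near-identical copy Hbb-bs differed by -0.33 on the log2 scale, and reads of these genes may be shared out between them. The haemoglobin genes together took 0.00572% of TPM against 0.0125%, a difference with an exact two-sided permutation p of 0.0368 and an adjusted p of 0.294 over 7 shares and the depth. None of the other 6 shares passed either, among them ribosomal protein genes (18.2% against 19.0%) and mitochondrially encoded genes (5.26% against 4.46%).

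**Figure D3:**
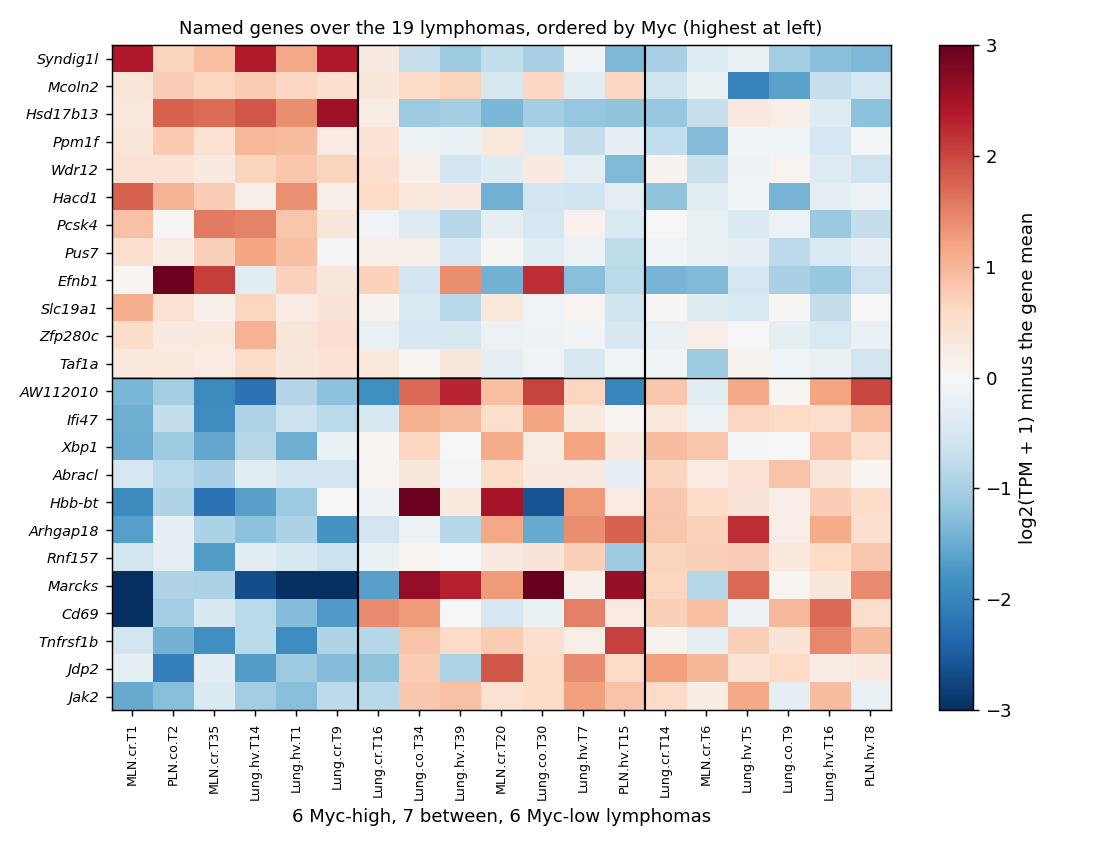
Each of 24 named genes (rows) in the 19 lymphomas (columns, ordered by Myc from highest at left), as log2(TPM + 1) minus the mean of the gene over the lymphomas, red above and blue below. The 6 columns at each end show the contrast by which the genes were picked, and the 7 columns between the black lines are lymphomas not used to pick them. The median of these 7 lay between the group medians for 8 of the 12 upper and 8 of the 12 lower genes, beside 31.1% of all tested genes. The wide gap between the picked groups favours a high count.

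Genes of the unfolded protein response were mostly lower in the Myc-high lymphomas, with Xbp1 the one that was called. This response raises chaperones and folding enzymes of the endoplasmic reticulum when unfolded proteins build up there. All 22 members passed the filter on low values. Xbp1 alone was called, 19 were lower in the Myc-high group by any amount, 10 had an unadjusted p under 0.05 in that direction and none in the other, and the median log2 difference was -0.58, against -0.05 over all genes. The chaperone Hspa5 (BiP) averaged 263 ± 57.4 TPM against 431 ± 121 TPM and the calcium-binding chaperone Calr 241 ± 55.4 TPM against 421 ± 146 TPM (SD, n = 6 each). The disulfide isomerase Pdia3 averaged 55.3 ± 9.78 TPM against 109.9 ± 32.7 TPM, and Manf, a secreted protein of the stressed reticulum, 69.2 ± 14.1 TPM against 131 ± 21.9 TPM. None of these 4 passed the threshold. The sensors Atf6 and Ern1 differed by 0.05 and -0.20 on the log2 scale. Sample by sample, the median of the 22 genes, each set to its mean over the 19 lymphomas, ran from -0.64 to -0.17 in the Myc-high and from -0.14 to 0.49 in the Myc-low lymphomas, so the groups did not overlap. The 7 lymphomas between them ran from -0.24 to 0.41. The list's median difference was -0.29 within the lymphomas whose descriptions join tumour and site in 1 word and -0.76 within those that separate them. The labels do not give the meaning of this difference of naming. Each style held 3 Myc-high and 3 Myc-low lymphomas. Those with joined names all came from lung, and of those with separated names only Lung.hv.T16 did. Among the separated names, the Myc-high lymphomas were of lines cr and co and the Myc-low ones of hv and cr. Naming, site and line therefore cannot be told apart here or wherever the styles are compared below.

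The promoters of this list carried a known sequence feature. The endoplasmic reticulum stress element is written CCAAT, 9 bases of any kind and CCACG, and ATF6 and XBP1 are known to act through it. On either strand it was present in 14 of 8572 promoter windows of tested genes (0.163%) and in 8 of 19 windows of this list (42.1%). The list was made of known genes of this response, so these shares describe the list and not the groups. The motif was searched for after the values of these genes had been seen. It is shown in 4 of the 8 members that carry it, genes of the reticulum measured beside Xbp1, so that the shared ends can be compared. The sequences come from RefSeq sequences of GRCm38.p6, with the 2 fixed ends of the element in capitals, at chr2:34772005-34772063 (+ strand) for Hspa5, chr14:118937807-118937865 (+ strand) for Dnajc3, chr12:17266471-17266529 (+ strand) for Pdia6 and chr11:50325780-50325838 (- strand) for Canx:
Hspa5: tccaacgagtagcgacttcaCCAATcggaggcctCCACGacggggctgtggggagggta
Dnajc3: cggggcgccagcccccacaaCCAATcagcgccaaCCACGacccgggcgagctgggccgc
Pdia6: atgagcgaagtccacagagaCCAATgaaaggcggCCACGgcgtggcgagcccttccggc
Canx: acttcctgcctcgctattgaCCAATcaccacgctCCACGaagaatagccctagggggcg

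Of the 14 genes with the element, 8 are thus the members of this list, whose levels were lower as described. The other 6 were split, with Hnrnpa3 at -0.66, Alg12 at -0.46, Acacb at -0.16, Adcy3 at 0.21, Pan2 at 0.31 and Derl3 at 0.51 on the log2 scale, none of them called. In the list, Dnajc3, a co-chaperone of the reticulum, averaged 12.7 ± 3.44 TPM against 23.8 ± 7.56 TPM, Pdia6, a disulfide isomerase, 108 ± 26.7 TPM against 146 ± 30.9 TPM, and Canx, a lectin chaperone, 220.1 ± 64.7 TPM against 273 ± 51 TPM (SD, n = 6 each). None was called, and Syvn1, a ubiquitin ligase of the reticulum that also carries the element, differed by -0.06. A match of letters is not a measurement of binding.

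Plasma cell genes had both signs. Of 15 tested, 10 were lower, Xbp1 called among them, and 5 higher, with a median of -0.53 that was -0.13 within the joined names. At an unadjusted p under 0.05, 4 were lower and 3 higher, beside 7.71% and 3.77% of all genes. Jchain, which joins IgA and IgM into polymers, averaged 1.4 ± 1.65 TPM against 16.3 ± 13.6 TPM (log2 difference -2.37 ± 0.73), and Igha, the IgA constant region, 1.86 ± 1.82 TPM against 21.3 ± 18.5 TPM (SD, n = 6 each). Slamf7 and Fkbp11, a surface receptor and a folding enzyme of plasma cells, had the opposite sign, at 1.69 and 0.72.

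Genes induced by interferon were lower without exception in sign. All 23 tested were lower in the Myc-high lymphomas, 10 of them at an unadjusted p under 0.05 and none called, with a median of -0.84 (-0.53 within the joined names). These 23 are the members that passed the filter on low values of 25 in the table. The nucleic acid sensor gene Zbp1 ran from 0.118 to 1.83 TPM (median 0.435) in the Myc-high lymphomas and from 0.722 to 28.8 TPM (median 9.63) in the Myc-low ones (log2 difference -2.22 ± 0.64). Irf7, a factor that amplifies the interferon response, ran from 0.756 to 7.54 TPM (median 3.21) in the Myc-high lymphomas and from 4.88 to 17.5 TPM (median 11.4) in the Myc-low ones (log2 difference -1.52 ± 0.38). Lung.hv.T5, PLN.hv.T8 and Lung.hv.T16 carried the high Zbp1 values, and the remaining Myc-low lymphomas lay at or near the Myc-high range. These 3 are all the hv lymphomas of the Myc-low group, and the groups were not matched for line. Resting B cells were higher than both groups, with a median of 140.3 TPM for Irf7. By sample, the median of the list ran from -1.07 to 0.09 in the Myc-high, from -0.59 to 1.34 in the middle and from -0.72 to 1.38 in the Myc-low lymphomas, so the groups overlapped. Bst2 of this list is also a dendritic cell marker, and the part of other cells in these levels was not tested.

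Antigen presentation genes had the same sign. Of 13 MHC class I genes, all 13 were lower and none was called, 7 at an unadjusted p under 0.05, with a median of -0.68. By sample, the median of the list ran from -1.01 to -0.36 in the Myc-high and from -1.01 to 0.61 in the Myc-low lymphomas, so the groups overlapped. MLN.cr.T6 and Lung.cr.T14 of the Myc-low group, at -1.01 and -0.48, lay with the Myc-high lymphomas. The Myc-high lymphomas of their line cr were at -0.56, -1.01 and -0.55. Those of line hv were at -0.44 and -0.36 in the Myc-high and at 0.45, 0.61 and 0.43 in the Myc-low group. The co lymphomas were at -0.51 in the Myc-high and 0.04 in the Myc-low group. The groups were not matched for line, and its part in these medians by sample was not tested. H2-T23, a non-classical class I gene, ran from 43.9 to 61.8 TPM (median 50) in the Myc-high lymphomas and from 69.9 to 169 TPM (median 107) in the Myc-low ones, without overlap (log2 difference -1.03 ± 0.22, adjusted p = 0.11 by limma with Benjamini-Hochberg adjustment). B2m, the light chain shared by class I molecules, averaged 492 ± 152 TPM against 1046 ± 542 TPM, and Tap1, which carries peptides into the reticulum, 35.8 ± 9.98 TPM against 70.8 ± 36.4 TPM (SD, n = 6 each). The classical genes H2-K1 and H2-D1 differed by -0.26 and -0.28. Reads of class I genes, which resemble each other, may be shared out between them.

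Of 12 MHC class II genes, 11 were lower and none was called, 6 at an unadjusted p under 0.05, with a median of -0.84. H2-Eb1, a chain of the class II molecule, ran from 166 to 374 TPM (median 249.8) in the Myc-high lymphomas and from 256 to 1522 TPM (median 591) in the Myc-low ones, and H2-DMa, which helps load its peptides, averaged 41.3 ± 7.54 TPM against 106 ± 65.4 TPM (SD, n = 6 each). The protease gene Ctss had the opposite sign, at 1.23 ± 1.25. By sample, the median of the list ran from -1.22 to -0.31 in the Myc-high and from -0.66 to 1.47 in the Myc-low lymphomas, so the groups overlapped. The class II median was -0.40 within the joined names and -1.31 within the separated ones, and the macrophage and dendritic cell marker sums above had lower medians as well, a part that was not tested.

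B-cell receptor signalling genes were lower in 22 of 25 cases, 9 of them at an unadjusted p under 0.05 and none called, with a median of -0.38 (-0.17 within the joined and -0.70 within the separated names). The complement receptor gene Cr2 ran from 0.0292 to 3.82 TPM (median 0.795) in the Myc-high lymphomas and from 1.56 to 34.9 TPM (median 9.59) in the Myc-low ones (log2 difference -2.30 ± 0.61), far under resting B cells at a median of 410.2 TPM. The phospholipase gene Plcg2 averaged 58.9 ± 20.2 TPM against 106 ± 37.1 TPM, and the phosphatase gene Ptpn6, which dampens the receptor, 147 ± 44.3 TPM against 277 ± 108 TPM (SD, n = 6 each). Of 19 B-cell identity genes, 12 were lower, near the share among all tested genes, of which 44.0% were higher. Of the 19, 3 were lower and none higher at an unadjusted p under 0.05, beside 7.71% and 3.77% of all genes. The median was -0.22, and it was 0.10 within the joined and -0.43 within the separated names.

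NF-kB targets were lower in 19 of 23 cases with a median of -0.46, but the sign differed between the naming styles: the median was 0.43 within the joined and -1.03 within the separated names. Of the 23, 2 were lower and none higher at an unadjusted p under 0.05, beside 7.71% and 3.77% of all genes. Traf1, an adaptor of TNF receptors, averaged 1.28 ± 0.942 TPM against 12.6 ± 22.5 TPM, and Lung.hv.T16 alone stood at 58.2 TPM. Homing receptors were lower in 10 of 16 cases, near the share among all tested genes, of which 44.0% were higher. Of the 16, 6 were lower and 1 higher at an unadjusted p under 0.05, beside 7.71% and 3.77% of all genes. The median was -0.70, and -0.02 within the joined names. The integrin genes Itgal and Itgb2 averaged 1.57 ± 0.491 TPM against 13.1 ± 14.7 TPM and 15.4 ± 5.29 TPM against 48.2 ± 31.3 TPM (SD, n = 6 each).

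Sterol and fatty acid synthesis genes were lower in 21 of 27 cases and none was called, with a median of -0.39 (-0.20 within the separated names). Of the 27, 3 were lower and none higher at an unadjusted p under 0.05, beside 7.71% and 3.77% of all genes. Hmgcs1, which makes the precursor of mevalonate, ran from 7.53 to 20.2 TPM (median 14.1) in the Myc-high lymphomas and from 23.7 to 29.4 TPM (median 25.3) in the Myc-low ones, without overlap (adjusted p = 0.128 by limma with Benjamini-Hochberg adjustment). LPS-treated B cells were above both groups, with a median of 122 TPM for Hmgcs1.

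**Figure D4:**
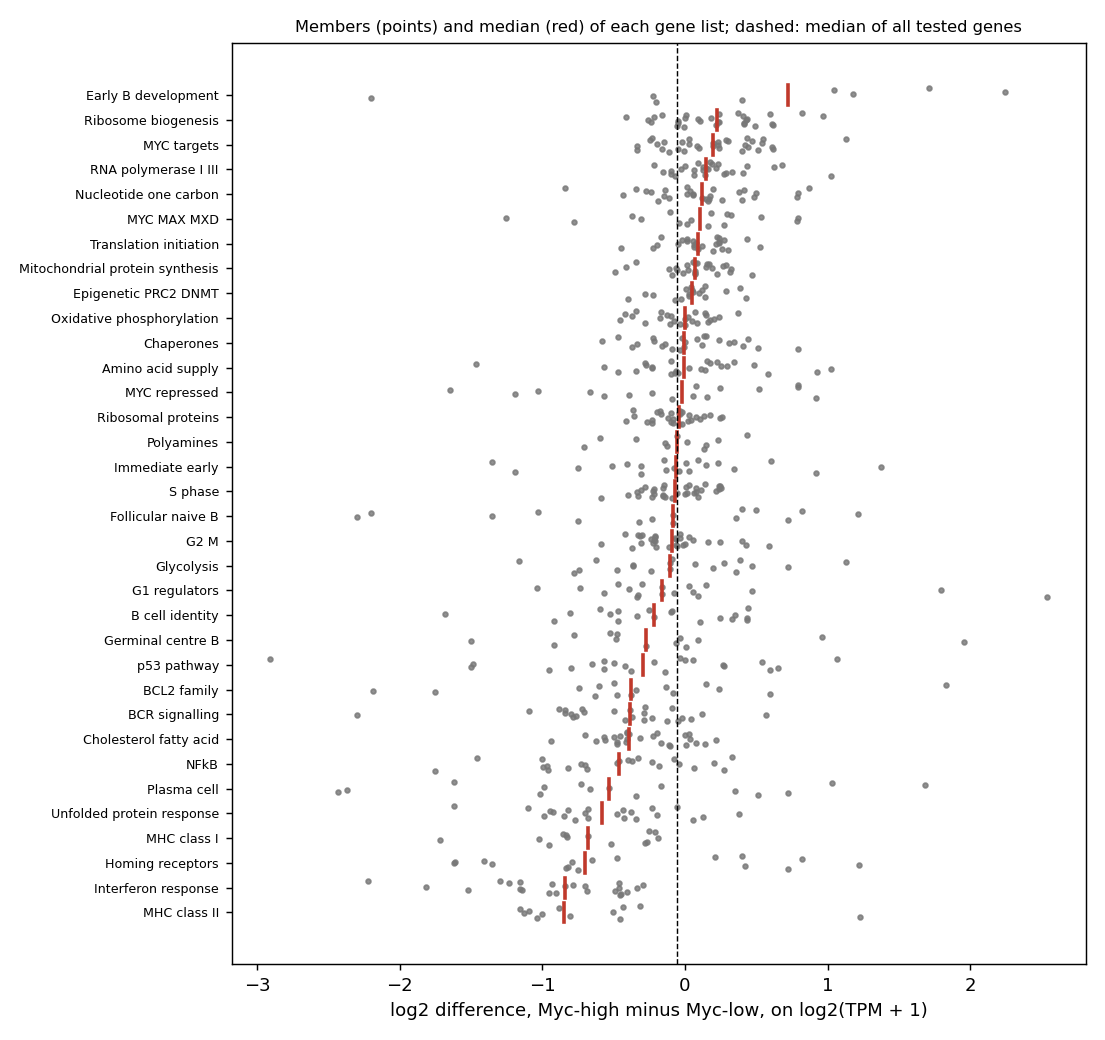
Log2 difference of each tested gene, Myc-high minus Myc-low (horizontal axis, log2(TPM + 1) scale), for 34 gene lists (rows), with each list's median in red and the median of all 11711 tested genes dashed at -0.05. The lists at the bottom, MHC class II, interferon response, homing receptors and MHC class I, have medians of -0.68 or lower, and growth lists near the top have medians between 0.09 and 0.22.

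Canonical growth targets of MYC held no called gene. Of 33 targets tested, 22 were higher and 11 lower, with a median of 0.20, and 17 of the 33 also stand in other lists. Of the 33, 6 were higher and none lower at an unadjusted p under 0.05, beside 3.77% and 7.71% of all genes. Slc16a1, a lactate transporter, ran from 41.1 to 120.1 TPM (median 104) in the Myc-high lymphomas and from 21 to 66.7 TPM (median 50) in the Myc-low ones (log2 difference 1.13 ± 0.33), where MLN.cr.T35 alone of the Myc-high lymphomas lay within the Myc-low range. The next largest differences were those of Dkc1 (0.62 ± 0.25), Gnl3, a nucleolar GTP-binding protein (0.61 ± 0.26), and Rrs1, a ribosome assembly factor (0.55 ± 0.21). Other targets differed by less: the ornithine decarboxylase gene Odc1 at 0.23 ± 0.26, the nucleolin gene Ncl at 0.42 ± 0.25, the nucleophosmin gene Npm1 at -0.14 ± 0.26, the lactate dehydrogenase gene Ldha at 0.20 ± 0.25 and the cell cycle kinase gene Cdk4 at -0.16 ± 0.23. The sign of Npm1 and Cdk4 turned when 8 lymphomas were taken at each end.

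Ribosome biogenesis genes were higher in 20 of 30 cases, 7 at an unadjusted p under 0.05 and none called, with a median of 0.22, and 4 of the 30 also stand in other lists. Rrp1b, a nucleolar protein of ribosomal RNA processing, averaged 134 ± 50 TPM against 65.1 ± 12.4 TPM (log2 difference 0.97 ± 0.24), and Dkc1, the pseudouridine synthase of small nucleolar ribonucleoproteins, 249.5 ± 111 TPM against 154 ± 28.3 TPM (SD, n = 6 each). By sample, the list's median was -0.38 in MLN.cr.T35, the third in Myc level, and 0.30 in PLN.hv.T8, the lowest in Myc, while the other Myc-high lymphomas ran from -0.07 to 0.45 and the other Myc-low ones from -0.20 to -0.06. The groups therefore overlapped through these 2 lymphomas. Such medians by sample were not corrected for shifts of a whole sample. MLN.cr.T35 held 34.3% of its TPM in the predicted gene Gm20594, against a mean of 20.7% in the Myc-high group. That leaves a smaller share of TPM for all its other genes. The part of this in its low median was not tested, and the same limit holds for its values given elsewhere. RNA polymerase I and III genes were higher in 20 of 27 cases (median 0.15), translation initiation genes in 19 of 25 (median 0.09) and nucleotide and one-carbon genes in 20 of 29 (median 0.12). Of all tested genes, 44.0% were higher. At an unadjusted p under 0.05, 2, 1 and 4 members of these lists were higher, beside 3.77% of all genes, and 0, 0 and 1 lower, beside 7.71%. With median-of-ratios scaling, which moved the median of all genes from -0.05 to 0.02, the medians of these 3 lists were 0.23, 0.17 and 0.20, and that of translation initiation genes was 0.0012 within the separated names. Phgdh, the first enzyme of serine synthesis, averaged 423 ± 118 TPM against 245 ± 82.2 TPM, and Uck2, a uridine-cytidine kinase, 197 ± 102 TPM against 103 ± 32.1 TPM (SD, n = 6 each), whereas Tyms, which makes thymidylate, had the opposite sign at -0.84 ± 0.38.

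The E-box was common in promoters of these growth genes. Their lists were drawn from general knowledge, so this describes the lists and not the groups. The letters CACGTG, which read the same on both strands, were present in 1039 of 8572 promoter windows of tested genes (12.1%), in 9 of 26 windows of MYC targets (34.6%) and in 9 of 28 of ribosome biogenesis genes (32.1%). They are shown for the target with the largest difference, Slc16a1 at chr3:104638444-104638489 (+ strand), for Mcoln2, one of the named genes, at chr3:146150082-146150127 (+ strand), and for Cdk4, a target near no difference, 1 of several E-boxes in its window, at chr10:127063343-127063388 (+ strand), with the motif in capitals (RefSeq, GRCm38.p6):
Slc16a1: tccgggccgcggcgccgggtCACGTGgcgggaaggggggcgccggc
Mcoln2: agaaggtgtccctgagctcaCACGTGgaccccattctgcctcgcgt
Cdk4: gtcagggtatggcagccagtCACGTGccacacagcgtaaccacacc

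Genes with the motif had a median difference of -0.04 and those without it -0.06. Of the genes with the motif, 468 were higher and 571 lower in the Myc-high group. None of the 3 genes called lower that had a window held the motif.

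Partners and rivals of MYC at the E-box did not share 1 direction. Max differed by 0.02 ± 0.21, Mnt by 0.04 ± 0.28 and Mga by -0.04 ± 0.29, differences smaller than their errors whose sign turned under other settings. Mxd3, which appears in S phase, averaged 5.35 ± 3.24 TPM against 15.8 ± 12.4 TPM and Mxd4 67.7 ± 47.8 TPM against 29.3 ± 4.01 TPM (SD, n = 6 each). Their log2 differences were -1.25 ± 0.48 and 0.80 ± 0.46 (SE). Mlx, the MAX-like partner of MLXIP, had the smallest adjusted p of the 16 tested, 0.193 by limma with Benjamini-Hochberg adjustment, at 17.7 ± 6.11 TPM against 29.9 ± 4.56 TPM.

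Cell cycle genes held no call. S-phase genes were higher in 14 of 32 cases (median -0.07) and G2/M genes in 8 of 30 (median -0.09), and none of either had an unadjusted p under 0.05. Their medians were -0.45 and -0.33 within the joined and 0.28 and 0.12 within the separated names, so the signs differed. The 18 regulators of G1 had a median of -0.16. The G1 cyclin gene Ccnd1 had high and low lymphomas in both groups: it was at 1.45 TPM in MLN.cr.T35 and 46.3 TPM or more in the other 5 Myc-high lymphomas, and at 58.8 TPM in Lung.co.T9 and 36.6 TPM in PLN.hv.T8 against 6.82 TPM or less in the other 4 Myc-low ones. Its log2 difference was 2.54 ± 1.2. Cdkn2d, an inhibitor of CDK4 and CDK6, averaged 10.5 ± 2.66 TPM against 23.3 ± 8.22 TPM (adjusted p = 0.128 by limma with Benjamini-Hochberg adjustment).

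The p53 axis, which MYC is known to activate through ARF, differed between single lymphomas. Of 22 genes of the p53 pathway, 8 were higher and 14 lower, none called. That split is near the one among all tested genes, of which 44.0% were higher. The median was -0.30, and it was 0.02 within the joined and -0.51 within the separated names. Trp53 was at 0.192, 0.275 and 1.43 TPM in the Myc-high lymphomas PLN.co.T2, Lung.hv.T1 and Lung.hv.T14, and at 41.8, 43.8 and 78.8 TPM in MLN.cr.T1, MLN.cr.T35 and Lung.cr.T9. All Myc-low lymphomas lay between 50.8 and 84.5 TPM. The log2 difference of -2.91 ± 1.10 did not pass (adjusted p = 0.341 by limma with Benjamini-Hochberg adjustment), and Lung.cr.T9 alone of the Myc-high group lay within the Myc-low range. Cdkn2a, which encodes ARF and p16, was at 109.6, 108 and 80.5 TPM in those same lymphomas. It was also at 57.8 TPM in MLN.cr.T35 and, among Myc-low lymphomas, at 124 TPM in Lung.hv.T5 and 84.4 TPM in PLN.hv.T8, and at 7.46 TPM or less in the others of both groups. Mdm2, the ligase that degrades p53, differed by -0.42 ± 0.24.

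Genes of the BCL2 family, which holds promoters and inhibitors of cell death, were lower in 11 of 15 cases (median -0.38, and -0.15 within the joined names). Of the 15, 2 were lower and 1 higher at an unadjusted p under 0.05, beside 7.71% and 3.77% of all genes. Bmf, a promoter of cell death, averaged 28 ± 16 TPM against 9.42 ± 8.06 TPM, and Bcl2a1d, a survival gene among near-identical copies, 0.862 ± 0.949 TPM against 22.8 ± 33.9 TPM (SD, n = 6 each). Bcl2, Mcl1 and Bcl2l11 differed by -0.08 ± 0.43, 0.15 ± 0.34 and 0.24 ± 0.37. Early B-cell genes stood out in single lymphomas: Rag1, of the recombinase, was at 58.2 TPM in MLN.cr.T35, 46.7 TPM in Lung.cr.T9 and 27.8 TPM in Lung.co.T9, and at 12.7 TPM or less in the others. Of 14 early B-cell genes, 8 passed the filter on low values, which high values in a few lymphomas suffice to do. Of these, 5 were higher and 3 lower, with a median of 0.72 that was 0.41 within the joined names, 0.36 within the separated names and 0.058 with no filter.

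The other lists held no called gene. The median was -0.02 in 16 genes known to be repressed by MYC, where the zinc finger factor gene Klf6 averaged 9.29 ± 5.13 TPM against 33.5 ± 18.1 TPM, -0.04 in 29 ribosomal protein genes, -0.06 in 11 polyamine genes, -0.01 in 26 amino acid supply genes, -0.10 in 19 glycolysis genes and 0.00 in 25 genes of oxidative phosphorylation. It was 0.07 in 26 genes of mitochondrial protein synthesis, 0.00 in 24 chaperones, -0.06 in 20 immediate early genes and 0.05 in 18 chromatin genes. With median-of-ratios scaling the medians of the repressed, ribosomal protein, polyamine, amino acid supply, oxidative phosphorylation, chaperone and immediate early lists lay between 0.02 and 0.08. Germinal centre genes had a median of -0.27 over 13, which was -0.0094 within the joined and -0.09 within the separated names. Follicular genes had -0.08 over 15, which was 0.56 within the joined and -0.50 within the separated names, and Ighd of this list, the IgD constant region, averaged 183 ± 119 TPM against 82.5 ± 68 TPM (SD, n = 6 each).

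Position in the genome was described because Myc lies on chromosome 15. Of the 9 tested genes within 3 Mb of Myc, 3 were higher and 6 lower, none called, with a median of -0.11. Trib1, a pseudokinase gene, averaged 31.9 ± 9.32 TPM against 17.9 ± 8.56 TPM (log2 difference 0.90 ± 0.32), and Fam49b, a regulator of actin, 99.6 ± 31.5 TPM against 162 ± 63.6 TPM (-0.67 ± 0.26). Chromosome 15 as a whole had a median of 0.01 over 436 genes. The highest medians were 0.22 on chromosome 1 (489 of 710 genes higher) and 0.19 on chromosome 3, and the lowest were -0.20 on chromosome 11 and -0.32 on chromosome 19, where 67 of 400 genes were higher. AW112010 and Jak2 lie on chromosome 19 and Ifi47 and Xbp1 on chromosome 11. Among genes higher in the Myc-high group, Wdr12, Taf1a, Rrs1 and Uck2 lie on chromosome 1 and Mcoln2, Slc16a1 and Phgdh on chromosome 3. The part of these chromosome-wide shifts in the values of all these genes was not tested.

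Single lymphomas carried whole chromosomes away from their other genes. Relative to the median of all genes in the same sample, chromosome 19 ran from -0.34 to 0.06 in the Myc-high and from 0.07 to 0.36 in the Myc-low lymphomas, the only chromosome on which the groups did not overlap, with -0.57 in Lung.cr.T16 between the groups. Chromosome 15 was at 0.28 in MLN.cr.T1 and 0.23 in PLN.co.T2, the 2 highest in Myc, but at -0.25 in Lung.hv.T14, the fourth. It was as high in lymphomas between the groups, at 0.27 in Lung.co.T34, 0.24 in Lung.hv.T39 and 0.26 in PLN.hv.T15. Chromosome 13 was at -0.59 and chromosome X at 0.57 in Lung.hv.T14, chromosome 5 at 0.56 and chromosome 4 at 0.50 in MLN.cr.T35, chromosome 16 at 0.45 in Lung.cr.T14 and chromosome 6 at 0.42 in Lung.co.T9. DNA was not measured, and copy number was not tested.

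**Figure D5:**
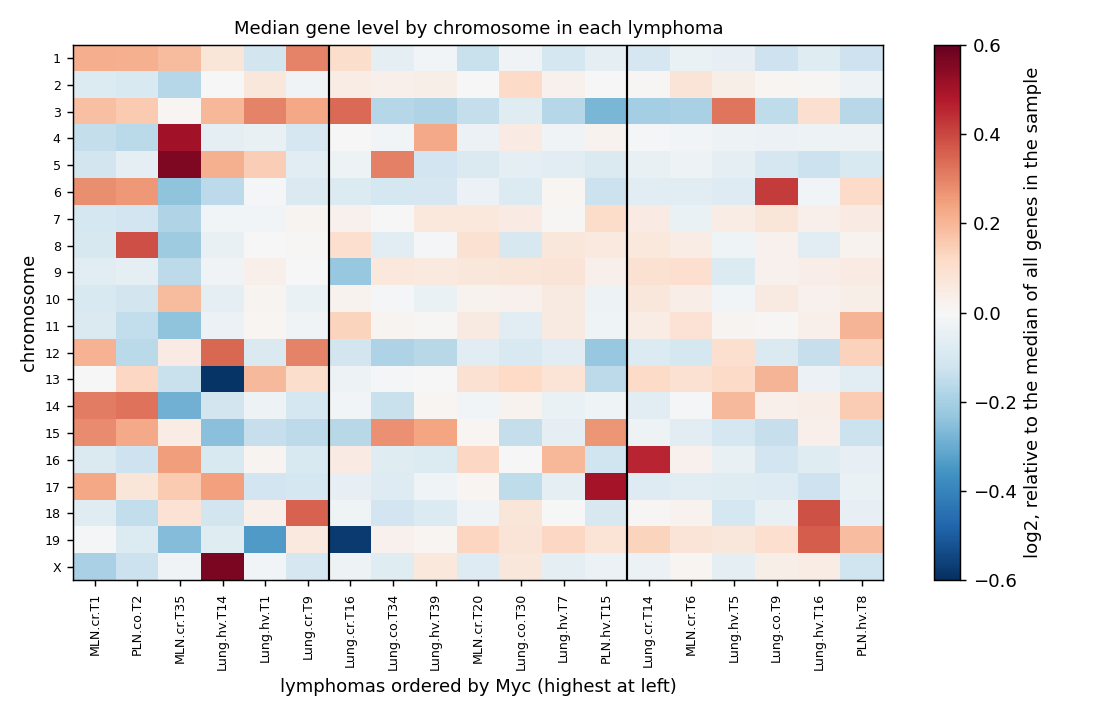
Median over the tested genes of each chromosome (rows) in each of the 19 lymphomas (columns, ordered by Myc from highest at left; black lines bound the groups), as log2(TPM + 1) minus the gene's mean over the lymphomas and relative to the median of all genes in the sample. Most cells are near 0, with single chromosomes far off in single lymphomas, such as chromosome 13 at -0.59 in Lung.hv.T14 and chromosome 5 at 0.56 in MLN.cr.T35; chromosome 19 is lower in all 6 Myc-high than in all 6 Myc-low lymphomas.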

How the data were processed

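RNA of B220+ cells was sequenced after ribosomal RNA depletion with a stranded kit, as the labels' protocols state. The tool kallisto 0.43 and the build mm10 (GRCm38) are named in the submitters' processing notes. Which transcript annotation and strand setting were used is not stated in those sources, and reads of antisense or overlapping genes may be mixed. TPM of 88198 transcripts were deposited by the authors and were summed to 30735 genes.

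A gene was tested if it reached 1 TPM in 4 or more of the 12 lymphomas, and the test was run with limma 3.58.1 (trend and robust settings, R 4.3.3) on log2(TPM + 1), Myc left out, with Benjamini-Hochberg adjustment over 11711 genes and a threshold of 0.05. Shares of TPM were compared with exact two-sided permutation tests. Gene lists, chromosomes and promoter motifs were described without a test. TPM keeps no depth; it was estimated from TPM times effective length, where 60.9 to 75.7% of low values came out as whole read pairs within 0.02, so depth is approximate, low values carry counting error that TPM does not show, and no count model was run. The script was tested on simulated data.

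Genes were named by rule: the 12 smallest p-values each way among genes whose groups did not overlap and whose higher mean was at least 5 TPM, without variable segments, predicted genes and pseudogenes, because fewer than 6 were called each way; up to 4 members of each list with the largest differences, called ones first; genes within 3 Mb of Myc; and fixed regulators. Further members of some lists are named for their role and were chosen after their values were seen. Groups, members and lists were chosen with earlier results of these data known. Alternatives covered pseudocount, filter, scaling, covariates, left-out samples, group size and model.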

Additional observations from a re-analysis of the deposited data

Results flagged for a closer look

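A rule that flags about 1 in 20 groups of independent, normally distributed values was applied to 122 groups of 6 values. The values were TPM of picked genes and shares of gene classes, so the count of flags cannot be set against that rate. Of the 122 groups, 12 held 1 sample far from the others. In Lung.hv.T5 of the Myc-low group these were Arhgap18 at 16.4 TPM, Mxi1, a MAX-pairing repressor, at 17.2 TPM, Mga at 65.8 TPM, the Myc neighbour Nsmce2 at 49.4 TPM and the ribosomal protein share at 14.5% of TPM, the lowest of its group. Zfp280c stood apart at 36.9 TPM and Ccnd2, a G1 cyclin, at 20.7 TPM in Lung.hv.T14. Rnf157 was lowest at 4.34 TPM in MLN.cr.T35, which also held 34.3% of its TPM in Gm20594, a predicted gene. Fam84b, a neighbour of Myc, was at 4.60 TPM in Lung.co.T9. Gm10800, another predicted gene, took 3.08% of TPM in MLN.cr.T6, and immunoglobulin light chain genes took 0.9999% in MLN.cr.T1.

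The difference between Myc-high and Myc-low lymphomas differed by site, lung or lymph node, for 1 of 11711 genes by limma's interaction term with Benjamini-Hochberg adjustment: Xlr4a, an X-linked lymphocyte-regulated gene with near-identical copies, by 4.39 on the log2 scale (adjusted p = 0.0158). It was at 20.4 to 32.1 TPM in the 4 Myc-low lymphomas of the lung and at 0.618 TPM or less in the other 8.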

How the results depend on the processing

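The number of genes called was 5 in the analysis reported and stayed at 5 with a pseudocount of 0.1 or 0.5 or a filter of 1 TPM in 6 samples, the same 5 genes each time. By limma it was 0, as was the number of list members called, with no filter (1849 genes at an unadjusted p under 0.05), with median-of-ratios scaling (1681), with a term for line (1414), site (1273) or both (1372, added after seeing the data), within the joined (456) and within the separated names (844), with 5 (1058) or 8 lymphomas (1581) at each end, and without the trend and robust settings (1352). The count was 6 after rescaling without mitochondrial, immunoglobulin, haemoglobin and repeat-like genes, 9 with a term for the naming of samples, 3 for the slope on log2 Myc (0 list members) and 24 with array quality weights (2 list members). Leaving out 1 lymphoma gave 0 to 27 calls and 0 to 4 list members. The cause of these changes was not tested.

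Genes near no difference did reverse in sign. Within the separated names, Max was at -0.16, Mnt at -0.30, Mcl1 at -0.33, Mtss1 at 0.35, Sqle at 0.41 and Washc5 at 0.042, and within the joined names Npm1 was at 0.14, Bcl2 at 0.51, Nsmce2 at -0.11, Asap1 at 0.57 and Gm21798 at 0.54. With 5 at each end, Max was at -0.027, Mnt at -0.0096, Mcl1 at -0.037 and Mtss1 at 0.011. With 8, Mga was at 0.034, Ccnd2 at 0.29, Npm1 at 0.078, Cdk4 at 0.026, Bcl2 at 0.20, Mtss1 at 0.030 and Gm21798 at 0.052. The line term put Mga at 0.013, Ccnd2 at 0.11 and Bcl2 at 0.093, and line with site put Mga at 0.026 and Bcl2 at 0.068. Median-of-ratios scaling put Mga at 0.036 and Asap1 at 0.021, the rescaling without abundant classes put them at 0.038 and 0.027, array weights put Bcl2 at 0.29 and Washc5 at 0.014, and the slope put Mcl1 at -0.012 and Mtss1 at 0.052. Leaving out 1 lymphoma moved Max from -0.071 to 0.10, Mnt from -0.074 to 0.19, Mga from -0.15 to 0.20, Ccnd2 from -0.88 to 0.34, Npm1 from -0.31 to 0.042, Bcl2 from -0.32 to 0.19, Mcl1 from -0.045 to 0.33, Bcl2l11 from -0.063 to 0.38, Mtss1 from -0.42 to 0.14, Washc5 from -0.22 to 0.035 and Asap1 from -0.22 to 0.17. The difference in share of TPM ran from -0.514 to 0.101 percentage points for Gm10800 and from -1.82 to 0.0589 for ribosomal protein genes, and that in depth from -1505000 to 1168000 read pairs.

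Scaling moved the median of all genes from -0.05 to 0.02. The lymphoma whose labels disagree between hv and co lies between the groups, so it was not left out. No paired analysis was possible because the lymphomas carry no replicate numbers that pair the groups. Depth leaves genes under about 1 TPM uncertain, and 6 lymphomas a side limit what the test can call.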

Other observations

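A slope on log2 Myc over all 19 lymphomas, which uses the 7 lymphomas between the groups, called 3 genes by limma with Benjamini-Hochberg adjustment. Syndig1l rose by 1.67 ± 0.27 (SE) on the log2(TPM + 1) scale per doubling of Myc (adjusted p = 0.0330). Taldo1, the transaldolase of the pentose phosphate pathway, fell by 0.66 ± 0.12 (adjusted p = 0.0488), and 2210016F16Rik, a gene without an established name, fell by 0.78 ± 0.13 (adjusted p = 0.0330). Xbp1 had a slope of -1.07 ± 0.20 and an adjusted p of 0.0592. Taldo1 and 2210016F16Rik were picked for these values, and the 12 lymphomas of the groups are among the 19.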
